A study of Mus musculus with 4 samples.

Results

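The genes described here encode the Golgi enzymes that start, extend, branch and cap mucin-type O-glycans and related chains with N-acetylgalactosamine (GalNAc), galactose, N-acetylglucosamine (GlcNAc), fucose and sialic acid. Members were all protein-coding genes of the mouse GRCm38 annotation whose symbol named a Galnt or Galntl, C1galt1, Gcnt, B3gnt, Fut, St3gal, St6gal or St6galnac enzyme, together with the chaperone gene C1galt1c1. The rule used names alone and no measured value. It found 57 genes with 56 symbols, since St6galnac2 was annotated at 2 gene identifiers, among 49671 genes of which 21811 were protein-coding. By family, 19 were GALNT genes, 2 belonged to core 1 synthesis, 5 were GCNT, 8 B3GNT, 8 FUT, 6 ST3GAL, and 9 ST6GAL or ST6GALNAC genes.

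RNA-seq was performed on basal and luminal epithelial cells from the tips of the developing prostate of untreated CD-1 mice, aged postnatal day 10 to 13 by the sample labels and over a slightly narrower range by the methods. Tips were cut from ventral lobes of several mice, and cells positive for CD45, CD31 or CD140a were removed by FACS before EpCAM high CD49f high (basal) and EpCAM high CD49f low (luminal) cells were collected. Each cell type had 2 libraries, labelled basal 1 and 3 and luminal 3 and 2. No genotype, transgene or agent separated the groups, and nothing stated that libraries of a group came from separate animals, so p-values measure only the spread between these libraries, which may be technical.

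Values are gene counts that were scaled by the authors to 20000000 aligned reads and rounded. The step between neighbouring low values within a library gives what 1 read was worth, which was 6.26 in basal 1, 6.49 in basal 3, 19.4 in luminal 3 and 31.2 in luminal 2. The recovered depth ranged from 643268 to 3194302 reads per library, and all 57 members together held 3020 and 3121 reads in basal 1 and 3 but 917 and 454 in luminal 3 and 2. Low members were therefore measured far less precisely in luminal cells, and a count of 0 there allowed a value of up to 58.1 in luminal 3 and 93.5 in luminal 2 (3 reads; counting error only). Lineage markers followed the labels: the basal keratin Krt5 was at 18481 and 15824 in basal libraries and at 77 and 93 in luminal ones, and the luminal keratin Krt8 at 3012 and 4287 against 13302 and 8320. Of the genes of the sort itself, Itga6 (CD49f) was at 20222 and 16382 against 4337 and 3584 and Epcam at 2355 and 3683 against 9081 and 6170, while Pdgfra (CD140a), whose product was used to exclude cells, was at 3307 and 4144 against 2575 and 8383 and so was present in all libraries. All 12 stromal and smooth muscle markers were above 0 in every library, with summed values of 135481 and 264318 in basal and 83037 and 263510 in luminal cells, which overlapped. Single markers of this list, named after their values were seen, did separate the groups: Dcn, a fibroblast proteoglycan gene, was at 45830 and 47724 in basal and at 5770 and 20256 in luminal libraries (edgeR FDR = 0.0383, limma adjusted p = 0.143), and the muscle gene Des ran the other way, at 820 and 1715 against 3207 and 2834 (edgeR FDR = 0.0887). The 6 neural crest and nerve markers summed to 2447 and 2305 in basal against 348 and 404 in luminal libraries, the 6 endothelial markers to 1598 and 1643 against 600 and 1807, and the 7 blood markers to 3031 and 1740 against 813 and 2087 (Ptprc and Hba-a1 at 0 in luminal cells), of which Cd3e alone (named after its values were seen) gave 2173 and 1462 against 639 and 1807. The part of these other cells in the differences below was not tested. In these bulk libraries, fewer cells of a type and less RNA per cell cannot be told apart.

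Mucin-type O-glycosylation begins when a GALNT enzyme places GalNAc on a serine or threonine. C1GALT1, which needs its chaperone C1GALT1C1 (Cosmc), adds galactose to make core 1, and GCNT enzymes branch it into core 2, from which B3GNT enzymes build lactosamine chains. Fucosyltransferases and sialyltransferases finish the chains, giving blood group H and Lewis structures or negatively charged ends. Secretory epithelia such as the prostate carry these glycans on cell surface mucins and on secreted proteins.

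Genes were compared between cell types with limma on log2 of the value plus 1, after a filter that kept a gene when both libraries of a cell type reached 10 and averaged at least 20. Of the 57 members, 42 passed the filter, 11 lay under it and 4 (Fut1, Galntl5, Gcnt3 and St6gal2) were at 0 in all libraries. An edgeR quasi-likelihood test on the recovered reads, which takes depth into account, was run beside it. limma called 1 member at an adjusted p under 0.05, Fut2, against 0.694% of the 18737 genes tested in either direction. edgeR called 7 of 42 members against 5.14% of 18492 genes and 6.13% of the protein-coding ones: Fut2, Fut9 and Galnt10 were higher in luminal cells (2.39% of all genes), and C1galt1, Gcnt1, St3gal1 and St3gal4 were higher in basal cells (2.75%). DESeq2 called 6 of the 32 members to which it gave an adjusted p, against 6.15% of 13473 genes, and did not call C1galt1 (adjusted p 0.0730). limma's unadjusted p was under 0.05 for 12 of 42 members and for 18.5% of all genes.

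The promoters of the called members are shown for the 3 whose RefSeq transcription start (GRCm38.p6) lay within 100 bases of an annotated GENCODE start. Of these, 1 was higher in luminal cells (Galnt10) and 2 were higher in basal cells. Of the 56 member symbols, 39 had an entry in the promoter table, among them 4 of the 7 called members. The windows hold the 250 bases before the start, 5′ to 3′ on the gene's strand, with CpG dinucleotides in capitals. Galnt10 lies at chr11:57645192-57645441 (plus strand), Gcnt1 at chr19:17356668-17356917 (minus strand) and St3gal4 at chr9:35116865-35117114 (minus strand). The windows of Gcnt1 and St3gal4 lie inside the gene's annotated span, downstream of its outermost start, and that of St3gal4 also lies over an exon of 4930581F22Rik on the opposite strand.
Galnt10: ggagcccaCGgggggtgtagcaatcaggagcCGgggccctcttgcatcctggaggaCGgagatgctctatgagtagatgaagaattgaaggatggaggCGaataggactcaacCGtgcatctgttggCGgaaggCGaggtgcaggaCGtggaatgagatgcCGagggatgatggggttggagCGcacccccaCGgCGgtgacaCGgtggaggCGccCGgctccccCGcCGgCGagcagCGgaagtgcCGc
Gcnt1: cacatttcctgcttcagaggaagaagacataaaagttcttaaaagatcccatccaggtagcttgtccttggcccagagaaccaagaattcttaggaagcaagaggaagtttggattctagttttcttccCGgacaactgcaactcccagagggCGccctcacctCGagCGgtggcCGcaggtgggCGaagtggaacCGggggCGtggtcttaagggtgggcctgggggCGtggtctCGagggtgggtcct
St3gal4: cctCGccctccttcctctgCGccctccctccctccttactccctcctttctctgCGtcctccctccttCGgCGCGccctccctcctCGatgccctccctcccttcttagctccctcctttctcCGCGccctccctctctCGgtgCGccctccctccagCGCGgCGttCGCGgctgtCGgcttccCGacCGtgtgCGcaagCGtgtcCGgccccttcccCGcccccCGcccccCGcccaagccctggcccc
Galnt10 held 20 CpG, a number that 17.9% of the 32851 windows in the table reached or passed, Gcnt1 held 10 (37.8%) and St3gal4 25 (10.7%), against a median of 6. St3gal4 held 3 GC boxes (GGGCGG or its complement CCGCCC, overlaps with other motifs not removed), which occurred in 32.7% of all windows, and the other two held none. None of the 3 windows held the androgen receptor half-site AGAACA or its complement TGTTCT (in 16.1% of all windows). The TATA box TATAAA, searched on the gene's own strand only, was also absent (in 7.59% of all windows). CpG number did not follow the direction of the difference in these few windows.

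**Figure D1:**
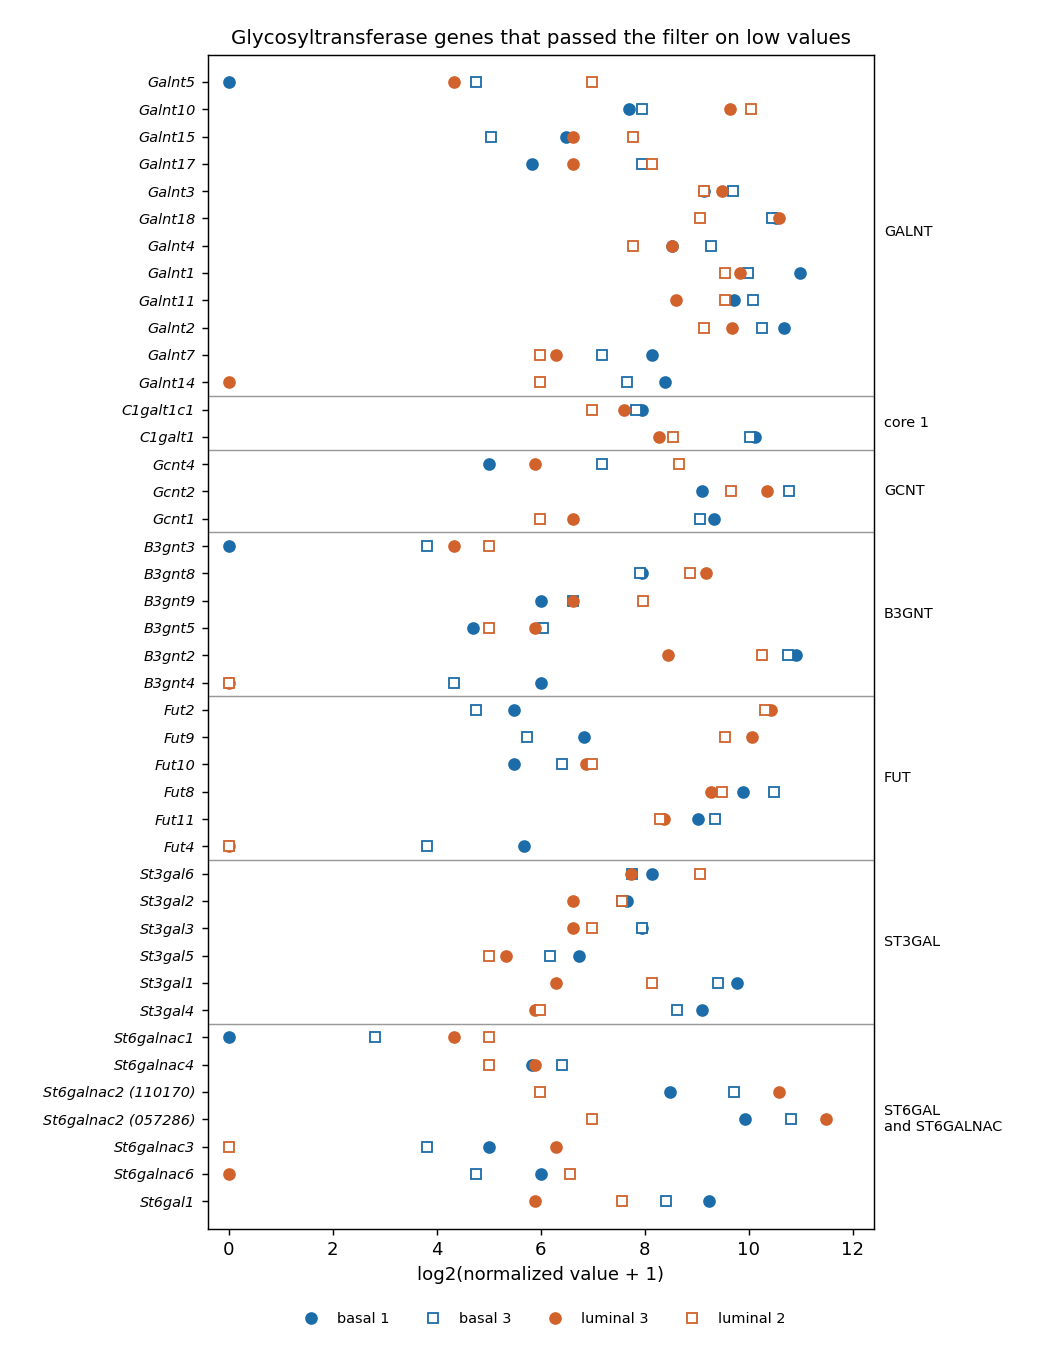
Each row is a member that passed the filter, grouped by enzyme family, and the horizontal axis gives log2 of the normalized value plus 1. Points are single libraries (blue basal, orange luminal). Fut2, Fut9 and Galnt10 had both luminal points to the right of both basal points, whereas C1galt1, Gcnt1, St3gal1 and St3gal4 had them to the left, and the luminal points of both St6galnac2 rows lay far apart.

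The basal libraries were more often above the luminal ones. Both basal libraries exceeded both luminal libraries in 20 of 42 members, against 27.3% of all genes and 30.1% of protein-coding genes, although in Galnt4 (basal 369 and 617, luminal 368 and 218) and St3gal2 (basal 200 and 188, luminal 97 and 187) the groups were 1 unit apart. Both luminal libraries were higher in 8 members, against 23.6% of all genes and 21.6% of protein-coding genes. In all, groups did not overlap in 28 members, against 50.9% of all genes, and overlapped in 14. By the ratio of averages, 10 members were at least 2-fold higher in luminal cells (18.3% of all genes, 14.8% of protein-coding genes) and 13 were at least as much higher in basal cells (16.3% and 15.5%). Some of these members passed the filter only through the group in which they were higher. With the filter required in both groups, the 2-fold counts were 7 and 10. Both luminal libraries were then higher in 6 members and both basal libraries in 17. Shares of all genes under that filter were not computed. After scaling to nuclear protein-coding genes, with the main filter, the 2-fold counts were 11 and 10. In that setting 15 members in place of 20 had both basal libraries on top. Shares of all genes after this scaling were not computed, so the shares above are not their match. The median log2 fold change of luminal over basal cells was -0.77 over the 42 members, with 15 above 0 and 27 below, against -0.10 over all genes and -0.15 over protein-coding genes. With 2 libraries against 2, an exact permutation test of a single gene cannot go below p = 0.33.

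**Figure D2:**
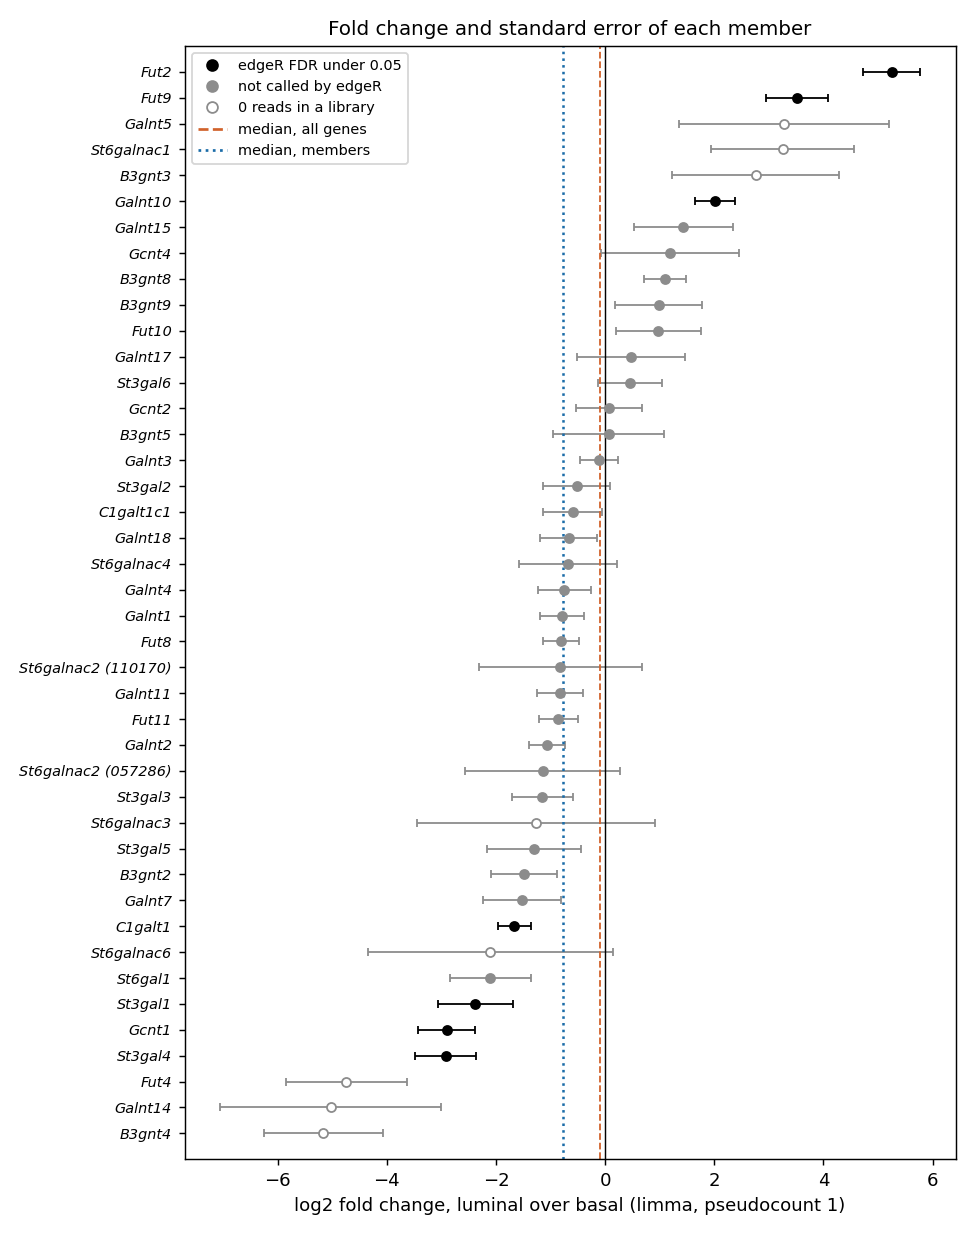
The horizontal axis gives limma's log2 fold change of luminal over basal cells for each member that passed the filter, and bars are its standard error with 2 libraries per group. Black points were called by edgeR, grey points were not, and open points had 0 reads in at least 1 library, where the fitted fold depends on the pseudocount. Fut2 stands at 5.25 and St3gal4 at -2.92, and the median of the members, -0.77, lies left of that of all genes, -0.10.

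Among fucosyltransferases, Fut2 and Fut9 were higher in luminal cells by edgeR. Fut2 (ENSMUSG00000055978, chromosome 7: 45648591 to 45666394, minus strand), which adds fucose to terminal galactose to make the H structure of epithelial secretions, was at 44 and 26 in basal 1 and 3 and at 1375 and 1278 in luminal 3 and 2. Both luminal values were far above both basal values, which rested on 7 and 4 reads. The average rose from 35 ± 12.7 (SD, n = 2) to 1327 ± 68.6 (SD, n = 2) in luminal cells, 37.9-fold, and the log2 fold change was 5.25 ± 0.53 (SE, limma adjusted p = 0.0405) and 5.23 in edgeR (FDR = 0.000119). Fut9 (chromosome 4: 25609332 to 25800244), which makes the Lewis x structure, was at 113 and 52 in basal and at 1065 and 748 in luminal libraries. The groups did not overlap, and the 10.99-fold higher luminal average (log2 fold change 3.52 ± 0.57 SE) was called by edgeR (FDR = 0.00182) but not by limma (adjusted p = 0.0659). Both genes were called by edgeR in each alternative tried, including those that left out a library, in which the lone library is assumed to vary like those of the other cell type, whereas limma's call of Fut2 was lost when any 1 library was left out (limma adjusted p = 0.0605 without basal 1, 0.0547 without basal 3, 0.158 without luminal 3 and 0.123 without luminal 2).

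No other fucosyltransferase was called by limma or edgeR. Fut8, which adds the core fucose of N-glycans, was at 952 and 1436 in basal and at 620 and 717 in luminal libraries (log2 fold change -0.81 ± 0.32 SE, limma adjusted p = 0.269). Fut11 was at 520 and 650 against 329 and 312 (log2 fold change -0.86 ± 0.35 SE, adjusted p = 0.280). Both luminal values of each were under both basal values, but neither gene passed a test. Fut10 was at 44 and 84 against 116 and 125, with both luminal values higher (log2 fold change 0.97 ± 0.78 SE, limma adjusted p = 0.534). Fut4, another enzyme able to make Lewis x, was at 50 and 13 in basal cells and at 0 in both luminal libraries, which is within the limit that a count of 0 allows there, so no fold is given. Fut7, the leukocyte enzyme of selectin ligands, had at most 1 read in a library and Fut1, the other enzyme of the H structure, had none.

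Per kilobase of exon, which allows genes to be compared, the make-up of the family differed. Fut8 held 42.6% and 50.05% and Fut11 43.3% and 42.1% of the family's summed level in basal 1 and 3, whereas Fut2 held 2.87% and 1.32%. In luminal 3 and 2, Fut2 held 48.9% and 49.2% and Fut9 14.9% and 11.3%, and Fut8 held 15.2% and 19.0%. Fut2 was thus the leading fucosyltransferase transcript of both luminal libraries and a minor one of both basal libraries. The family's summed value was 1729 and 2261 in basal and 3524 and 3180 in luminal cells, and FUT was the only family of the 7 in which both luminal sums exceeded both basal sums.

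**Figure D3:**
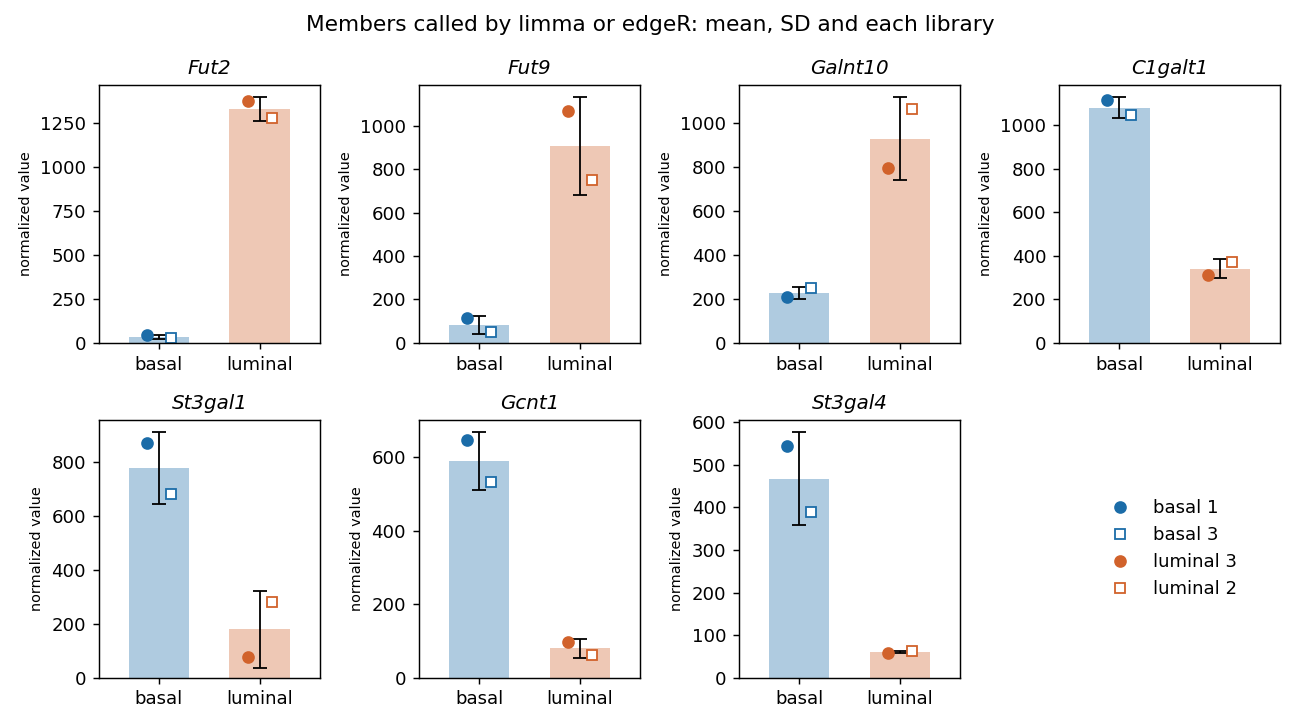
Each panel is a member called by limma or edgeR, and the vertical axis is the normalized value on a linear scale from 0. Points are single libraries, bars the mean and error bars the SD (n = 2 per cell type). The luminal bars stand above the basal ones for Fut2, Fut9 and Galnt10 and below them for C1galt1, Gcnt1, St3gal1 and St3gal4, without overlap in any panel.

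The genes of the core 1 galactosyltransferase and of a core 2 branching enzyme were higher in basal cells by edgeR. C1galt1 (ENSMUSG00000042460, chromosome 6: 7844842 to 7875687, plus strand), the core 1 galactosyltransferase, was at 1115 and 1046 in basal and at 310 and 374 in luminal libraries. The groups did not overlap, and the libraries of each lay close together (1081 ± 48.8 and 342.0 ± 45.3, SD, n = 2). The average was 3.16-fold higher in basal cells, with a log2 fold change of -1.66 ± 0.31 (SE), which edgeR called (FDR = 0.0300) and limma did not (adjusted p = 0.0688). The edgeR call was lost when any 1 library was left out (FDR = 0.0555 to 0.142), with log2 fold changes of -1.73 to -1.61. Its chaperone C1galt1c1, on the X chromosome, was at 244 and 227 against 194 and 125. This smaller difference (log2 fold change -0.59 ± 0.54 SE) passed neither test (limma adjusted p = 0.578, edgeR FDR = 0.735), and whether it differed from that of C1galt1 was not tested.

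Gcnt1 (ENSMUSG00000038843, chromosome 19: 17326141 to 17372844, minus strand), the leukocyte-type core 2 branching enzyme whose promoter is printed above, was at 645 and 533 in basal and at 97 and 62 in luminal libraries. The luminal values rested on 5 and 2 reads. On recovered reads the basal level was 7.05 times the luminal one, with a 95% counting interval of 3.36 to 17.8, and the log2 fold change was -2.90 ± 0.52 (SE; edgeR FDR = 0.0141, or 0.0527 without luminal 3, limma adjusted p = 0.0688). Gcnt4, another core 2 enzyme, was at 31 and 143 in basal and at 58 and 405 in luminal cells, and Gcnt2, which branches lactosamine chains into the I structure, was at 545 and 1741 against 1297 and 810. Both overlapped between groups, with larger spread within than between cell types for Gcnt2 (log2 fold change 0.07 ± 0.60 SE). Gcnt2 held 80.1% and 56.0% of the family's level per kilobase in luminal 3 and 2, where Gcnt1 held 7.33% and 5.24%. In basal 1 and 3 Gcnt1 held 54.9% and 24.99% and Gcnt2 held 37.9% and 66.7%. Gcnt4 held 38.8% in luminal 2 and at most 7.59% elsewhere. The mucin-type core 2 gene Gcnt3 was at 0 throughout and Gcnt7 had at most 3 reads.

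The polypeptide GALNT transferases that start O-glycans showed no common direction. Galnt10 (ENSMUSG00000020520, chromosome 11: 57645442 to 57787514, plus strand), which prefers peptides that already carry GalNAc, was at 207 and 247 in basal and at 794 and 1060 in luminal libraries. Both luminal values lay above both basal values, 4.08-fold on average, with a log2 fold change of 2.02 ± 0.36 (SE; edgeR FDR = 0.0134, limma adjusted p = 0.0688). The edgeR FDR was 0.0601 without basal 1 and 0.0549 without luminal 2. Galnt14 was at 332 and 201 in basal and at 0 and 62 in luminal cells. With 0 and 2 luminal reads, its basal to luminal ratio was 11.2 with a 95% counting interval of 3.01 to 94.1, and it was called by neither limma (adjusted p = 0.270) nor edgeR after the filter (FDR = 0.0985, but 0.0100 without a filter and 0.0441 without luminal 2). Galnt7, another enzyme that acts on glycosylated peptides, was at 282 and 143 against 77 and 62 and was not called (limma adjusted p = 0.331).

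Galnt18 had the highest level of the family per kilobase on average in both cell types, with values of 1465 and 1397 in basal and of 1530 and 530 in luminal libraries, which overlapped. Next in basal cells were the widely expressed Galnt1 and Galnt2, at 2017 and 1013 against 910 and 748 and at 1628 and 1228 against 813 and 561. Their luminal values were lower in both libraries but passed no test (limma adjusted p = 0.362 and 0.170), and 3854 of Galnt2's 4282 exon bases are shared with the overlapping gene Gm20388 on the same strand. How shared reads were counted, and whether strand was used, is not known, so values of members that overlap another gene are uncertain. Galnt10 held 1.91% and 2.51% of the family's level per kilobase in basal 1 and 3 and 9.06% and 16.6% in luminal 3 and 2. The remaining genes above the filter (Galnt3, Galnt4, Galnt5, Galnt11, Galnt15 and Galnt17) ranged from 0 to 1078, and none was called. Galnt6, Galnt9, Galnt12, Galnt13, Galnt16 and Galntl6 were under the filter with 0 to 13 reads per library. In all, 2 of the 12 GALNT genes above the filter had both luminal libraries higher (23.6% of all genes, 21.6% of protein-coding genes) and 6 had both basal libraries higher (27.3% and 30.1%), Galnt4 by 1 unit only, with a median log2 fold change of -0.71.

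Among the B3GNT enzymes that extend chains with GlcNAc, B3gnt2, the main polylactosamine enzyme, led the family per kilobase in every library except luminal 3. It was at 1916 and 1734 in basal and at 349 and 1215 in luminal cells. The groups did not overlap but the luminal libraries differed more than 3-fold, and it passed neither test after the filter (log2 fold change -1.48 ± 0.60 SE, limma adjusted p = 0.272, edgeR FDR = 0.148, but 0.0189 without a filter and 0.0114 without luminal 2). Of its exon sequence, 58.6% is shared with the overlapping gene Gm28048 on the same strand, which had nearly the same values (1841 and 1812 against 426 and 1215), so the 2 genes cannot be told apart. B3gnt8, which forms a complex with B3gnt2, was at 244 and 240 against 581 and 467. Both luminal values were higher, 2.17-fold on average, without a call (limma adjusted p = 0.218, edgeR FDR = 0.197), and 18.1% of its exon sequence lies opposite Bckdha. B3gnt9 was at 63 and 97 against 97 and 249. B3gnt8 held 6.48% and 7.003% of the family's level per kilobase in basal and 38.4% and 15.1% in luminal libraries. B3gnt3, B3gnt4 and B3gnt5 did not exceed 65 in any library, with B3gnt4 at 0 in both luminal libraries, and B3gnt6, the core 3 enzyme, and B3gnt7 were under the filter.

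The ST3GAL sialyltransferases, which cap galactose, lay lower in luminal cells in most members. Both basal libraries were above both luminal ones in 5 of 6 (27.3% of all genes, 30.1% of protein-coding genes), in St3gal2 by 1 unit only. The basal average was at least 2-fold higher in 4 of 6 (16.3% and 15.5%), and the median log2 fold change was -1.22. St3gal4 (ENSMUSG00000032038, chromosome 9: 35046576 to 35119268, minus strand), which sialylates lactosamine ends, was at 545 and 390 in basal and at 58 and 62 in luminal libraries. The luminal values rested on 3 and 2 reads, and the ratio of reads was 7.85 with a 95% counting interval of 3.29 to 24.5. Its log2 fold change of -2.92 ± 0.56 (SE) was called by edgeR (FDR = 0.0221) and not by limma (adjusted p = 0.0705). The edgeR FDR was 0.0928 without basal 1, 0.112 without luminal 3 and 0.0537 without luminal 2. Of its exon sequence, 14.1% lies opposite 4930581F22Rik. St3gal1 (ENSMUSG00000013846, chromosome 15: 67102875 to 67176830, minus strand), which sialylates core 1, was at 871 and 682 against 77 and 280. The luminal libraries were both lower but unlike each other, the average being 4.35-fold higher in basal cells (log2 fold change -2.38 ± 0.69 SE, edgeR FDR = 0.0375, limma adjusted p = 0.151), and the edgeR FDR was 0.0761 without basal 1 and 0.219 without luminal 3.

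St3gal3 was at 244 and 247 in basal and at 97 and 125 in luminal cells and was not called (limma adjusted p = 0.346). St3gal2, which also acts on core 1, ranged from 97 to 200, and St3gal5, the GM3 ganglioside synthase, from 31 to 106. St3gal6 was the member of this family whose average was higher in luminal cells, at 282 and 214 in basal and 213 and 530 in luminal libraries. These values overlapped, and 26.0% of its exon sequence lies opposite Dcbld2. Per kilobase, St3gal4 held 35.3% and 31.7% of the family in basal 1 and 3 but 14.7% and 8.76% in luminal 3 and 2, whereas St3gal6 held 8.66% and 8.23% against 25.6% and 35.5%. The family's summed value was 2248 and 1792 in basal and 581 and 1215 in luminal cells.

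**Figure D4:**
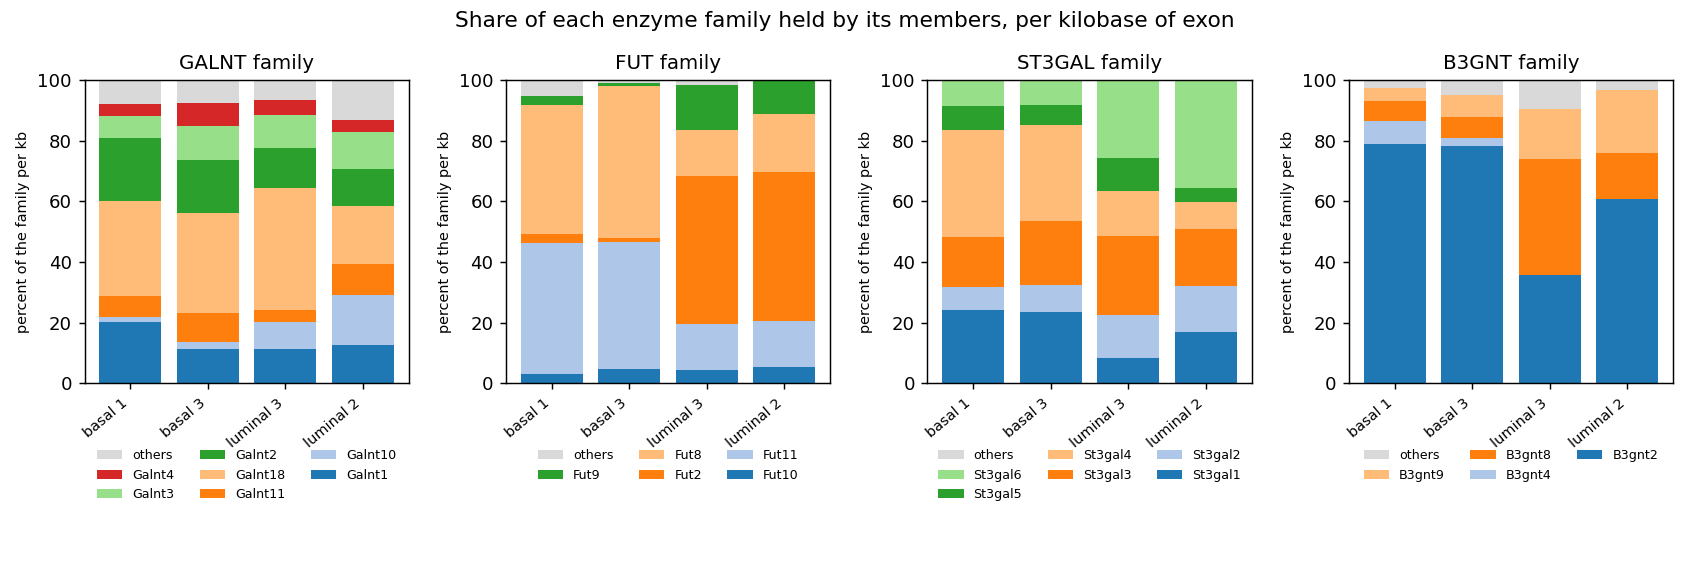
Bars show, for each library, the percent of a family's summed level per kilobase of exon held by each member, in 4 of the 7 families. Fut2 took 48.9% and 49.2% of the FUT family in luminal 3 and 2 against 2.87% and 1.32% in basal 1 and 3, St3gal6 went from 8.66% and 8.23% to 25.6% and 35.5% of the ST3GAL family, and Galnt18 was the widest GALNT band in every library.

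The sialyltransferases that attach sialic acid through its other linkage showed the widest spread between libraries. St6gal1, which caps N-glycan lactosamine, was at 601 and 338 in basal and at 58 and 187 in luminal libraries. The groups did not overlap and the average was 3.83-fold higher in basal cells, but it passed neither test after the filter (log2 fold change -2.10 ± 0.74 SE, limma adjusted p = 0.223, edgeR FDR = 0.105, or 0.0215 without a filter). St6galnac2, which sialylates the GalNAc of O-glycans, was at 971 and 1806 in basal and at 2866 and 125 in luminal libraries in its longer annotation (ENSMUSG00000057286, chromosome 11: 116675303 to 116694868). The shorter one nested in it (ENSMUSG00000110170), which shares 383 bases of exon with it, was at 357 and 838 against 1530 and 62. In both annotations luminal 3 held the highest and luminal 2 the lowest value of all 4 libraries, so no direction can be given. For the longer annotation edgeR gave 0.21 with all libraries (FDR = 0.923) and -3.57 without luminal 3 (FDR = 0.0279), an alternative chosen after seeing the data. St6galnac1, St6galnac3, St6galnac4 and St6galnac6 did not exceed 93 in any library, and St6galnac5 was under the filter with at most 3 reads.

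Genes that act beside these enzymes were counted from lists of related steps. Of 12 genes that make or carry activated sialic acid and fucose, 10 passed the filter, 6 were at least 2-fold higher in luminal cells (18.3% of all genes) and none was as much higher in the basal group (16.3%), with a median log2 fold change of 1.59. edgeR called 4 of the 10, all higher in luminal cells (2.39% of all genes), and limma 0, with 0.694% of all genes called. Gmds, the first enzyme of GDP-fucose synthesis, was at 163 and 136 in basal and at 871 and 436 in luminal libraries (edgeR FDR = 0.0277, limma adjusted p = 0.104). Slc35c1, the Golgi GDP-fucose carrier, was at 138 and 32 against 484 and 280 and was not called (edgeR FDR = 0.109). The other edgeR calls, named after their values were seen, were Gne, Nans and Cmas of sialic acid synthesis, each at least 3.10-fold higher in luminal cells on average. Gne, its first enzyme, was at 1829 and 1215 against 5112 and 4643 (edgeR FDR = 0.00621).

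Of 19 genes that add galactose or GalNAc to chains, 16 passed the filter, 6 were at least 2-fold higher in luminal (18.3% of all genes) and 2 in basal cells (16.3%), and edgeR called 1, a share near that of all genes (5.14%). This was Abo, whose enzyme acts on the H structure that FUT2 makes. It was at 6 and 32 in basal and at 562 and 467 in luminal libraries (edgeR FDR = 0.00388, limma adjusted p = 0.0705), in the same direction as Fut2. Abo passed the filter only through the luminal libraries, and its basal values rested on 1 and 5 reads. B4galnt3 was at 557 and 494 against 213 and 0 and was not called (edgeR FDR = 0.154). Of 11 N-glycan branching and trimming genes, all passed the filter, none was 2-fold higher in luminal cells (18.3% of all genes) and 3 were so in basal cells (16.3%). edgeR called 1 of them as higher in basal cells (2.75% of all genes), the mannosidase Man1a, at 4622 and 5145 against 1530 and 2088 (FDR = 0.0169), and Mgat4b, a GlcNAc branching enzyme, was at 388 and 299 against 213 and 31 without a call.

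Among 21 mucins and mucin-like acceptor proteins, 12 passed the filter, 4 had a luminal average at least 2-fold above the basal one (18.3% of all genes) and 3 the opposite (16.3%). edgeR called 2 of the 12 (5.14% of all genes), the mucin-like Pdpn, podoplanin, at 3989 and 3254 in basal and 290 and 686 in luminal cells (FDR = 0.00115), and the secreted mucin Muc19, named after its values were seen, at 0 in both basal libraries and 194 and 125 in luminal ones (FDR = 0.0131). Muc19 passed the filter only through the luminal libraries, where it had 10 and 4 reads. Muc6 was at 125 and 104 against 0 and 187. The membrane mucin gene Muc1, also named after its values were seen, had at most 5 reads in a library. The remaining lists held no edgeR or limma call. Of 5 protein O-fucosylation genes, 1 was at least 2-fold higher in basal cells, with the Fringe genes Lfng at 213 and 143 against 77 and 31 and Rfng at 263 and 195 against 155 and 187. Of 8 sialidase, fucosidase and related genes above the filter, 2 were at least 2-fold higher in luminal cells, the sialidases Neu1, at 163 and 175 against 407 and 312, and Neu2, named after its values were seen, which had at most 3 reads in a library. The fucosidase Fuca1 was at 319 and 500 against 755 and 654. Of 9 glycan sulfotransferases, 3 passed the filter, Chst2 being at 507 and 455 against 503 and 904, and of 6 polysialyl and ganglioside sialyltransferases outside the name rule, 1 did.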

How the data were processed

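RNA-seq of basal and luminal cells sorted from prostate tips was used, with 2 libraries each, grouped by the sample titles. The authors mapped reads to GRCm38 with STAR, counted genes with HTSeq, scaled the counts to 20000000 aligned reads, and the deposited values are a whole-number signal for each gene and library. Picard is also named in the submitters' processing notes. Counting mode, use of strand and duplicate removal are not given in the sources used here. All table columns were mapped to a sample, leaving 0 unmapped.

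The value of 1 read was found for each library from the step between its values up to 60 reads, and 97.9% to 99.0% of the low values lay on it (within 0.6 of a unit). No member was among the 533 genes with values on another spacing. Recovered reads ranged from 643268 to 3194302 per library. Intervals (95%) and the floor of 3 reads cover counting error only.

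The filter asked for both libraries of either cell type at 10 or more with an average of 20 or more, and 18737 genes passed. limma 3.58.1 was fitted to log2(value + 1) of all kept genes with a trended prior, and p-values were adjusted by Benjamini-Hochberg. Fitted fold changes of low genes depend on the pseudocount (Galnt14, at 0 in 1 library, had a log2 fold change of -5.03 in limma and -3.32 in edgeR). On recovered reads, the quasi-likelihood test of edgeR 4.0.16 and the Wald test of DESeq2 1.42.0 were used (R 4.3.3). Folds are ratios of group averages (thresholds 2 and 0.5). Symbols, coordinates and exon lengths were taken from GENCODE for GRCm38 (49412 of 49671 identifiers found), and promoters from RefSeq (GRCm38.p6). The scripts were tested on simulated data, with Python 3.11.15, numpy 2.4.6, pandas 2.3.3, scipy 1.17.1 and matplotlib 3.10.9 for the rest.

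Library values are given for members called by limma or edgeR, for the 3 members of each family with the largest fitted fold change among those averaging 100 or more, for the most abundant member per kilobase in each cell type, for C1galt1 and C1galt1c1, and for 2 members of each related list by the same measure. Other values serve as examples of classes. The level of 1 marker gene is not reported here. The members and lists were chosen with earlier results of these data known. Alternatives changed the pseudocount, filter, scaling, model and fold threshold and left out each library in turn. Those of edgeR with other filters or fewer libraries were added after seeing the data.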

Additional observations from a re-analysis of the deposited data

How the results depend on the processing

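No paired analysis was possible because the groups share only 1 replicate number, 3. The number of members called by limma was 1 and became 3 with a pseudocount of 10, 0 without a filter and 6 with the filter required in both groups, while edgeR called 7 and DESeq2 6. Leaving out 1 library gave 0 to 2 calls by limma, and 0 without basal 1, luminal 3 or luminal 2 (Fut2 was not among the 2 without basal 3). For edgeR, leaving out 1 library gave 3 to 6 members (3 without basal 1, 4 without luminal 3), other filters gave 6 to 10 (10 without a filter, with B3gnt2, Galnt14 and St6gal1 added), and Fut2 and Fut9 were called in each. With 1 library left out, all spread within groups comes from the other cell type. The calls of the others depended on single libraries, while their log2 fold changes with 1 library left out ranged from -1.73 to -1.61 for C1galt1, 1.87 to 2.22 for Galnt10, -3.06 to -2.68 for St3gal4, -3.30 to -2.52 for Gcnt1 and -3.24 to -1.55 for St3gal1. Without luminal 3, the edgeR FDR was 0.0527 for Gcnt1, 0.112 for St3gal4, 0.142 for C1galt1 and 0.219 for St3gal1, and without basal 1 it was 0.0601 for Galnt10, 0.0928 for St3gal4, 0.0886 for C1galt1 and 0.0761 for St3gal1. Without luminal 2, Galnt10 was at 0.0549, St3gal4 at 0.0537 and C1galt1 at 0.0555, and C1galt1 was at 0.0822 without basal 3. St3gal1 was also lost with the filter in both groups (0.0621).

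The members' median log2 fold change of -0.77 was -0.44 after scaling to nuclear protein-coding genes (the all-gene median then went from -0.10 to 0.22), -0.44 in edgeR and -0.42 in DESeq2, and ranged from -0.86 to -0.28 with 1 library left out. At a 4-fold threshold 5 members were higher in luminal and 6 in basal cells, and the share of all genes past it was not computed. With 1 library left out, members with every remaining luminal library above every remaining basal one numbered 8 to 18. The reverse order was found in 20 to 26. Such an order is easier to reach when a group has a lone library, and shares of all genes were not computed. Signs reversed in some settings. The log2 fold change of Gcnt2 was -0.0918 in edgeR and -0.0797 in DESeq2, and ranged from -0.76 to 0.91 with 1 library left out (below 0 without basal 1 or luminal 3). That of St6galnac2 was 0.21 and 0.18 in edgeR and DESeq2 for ENSMUSG00000057286 and 0.53 and 0.48 for ENSMUSG00000110170, and ranged from -3.39 to 1.11 and from -3.12 to 1.48 with 1 library left out. Those of Galnt18 (-1.43 to 0.10), Gcnt4 (-0.20 to 2.58) and St3gal6 (-0.20 to 1.11) changed sign without luminal 2, as did St6galnac2. The cause was not tested. Of 298 values of 23 named genes under the alternatives, 262 kept their sign and call. Only Fut2 was called in the main limma fit, so for the other genes a kept call means that they stayed uncalled. Depth limits the luminal values, since 23 members had at most 3 reads in each luminal library.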
